A study of Homo sapiens with 18 samples.

Results

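The Toll-like receptor (TLR) genes TLR1, TLR2, TLR4, TLR5, TLR6, TLR7 and TLR8, the co-receptor genes CD14 and LY96 and the adaptor gene MYD88 were followed by RNA-seq in THP-1, a human cell line established from a monocytic leukaemia. These 10 genes were taken by name from the 58051 genes of each count file, and all 10 were found by matching their symbols to Ensembl identifiers. The cells carried an MSCV retroviral vector with GFP and were sorted for GFP. The vector was empty (IRES), encoded MYC-NIC1, the active intracellular part of the receptor NOTCH1 with a MYC tag (NIC1), or encoded DNMAML, a Mastermind-like protein that acts as a dominant negative on the transcription complex of Notch. All cells were treated with the phorbol ester PMA at 5 ng/ml for 48 h, which turns THP-1 into adherent macrophage-like cells, so the unstimulated groups had PMA too. Each construct was measured unstimulated and after IL-4 at 20 ng/ml for 3 h. The title gives the question as what too much or too little Notch signalling does in THP-1 cells given IL-4. There were 3 libraries in each of the 6 groups, numbered 1 to 3, and each number occurs once in every group. All data come from a single cell line, and how many independent transductions lay behind the libraries is not given in the sources used here.

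Toll-like receptors are membrane proteins with which macrophages recognise microbial molecules. TLR4 binds bacterial lipopolysaccharide (LPS) together with LY96 (also called MD-2), to which CD14 passes the ligand. TLR2 recognises lipopeptides as a heterodimer with TLR1 or TLR6, TLR5 recognises flagellin, and TLR7 and TLR8 sense single-stranded RNA in endosomes. All of these receptors recruit MYD88, which leads through IRAK kinases and TRAF6 to NF-kappaB and to cytokine genes. IL-4 acts through the transcription factor STAT6, and Notch acts through the DNA-binding protein RBPJ.

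The genes lie on 7 chromosomes (GRCh38, GENCODE release 29). TLR1 (ENSG00000174125, 4:38790677-38856817, minus strand) and TLR6 (ENSG00000174130, 4:38823715-38856817, minus strand) are neighbours whose annotated start is the same base, and TLR2 (ENSG00000137462, 4:153684070-153705702, plus strand) lies on the same chromosome. TLR7 (ENSG00000196664, X:12867083-12890380) and TLR8 (ENSG00000101916, X:12906620-12923169) follow each other on the plus strand of the X chromosome. TLR4 (ENSG00000136869) spans 9:117704175-117724730 on the plus strand, and TLR5 (ENSG00000187554) spans 1:223109406-223143282 on the minus strand. CD14 (ENSG00000170458) lies at 5:140631728-140633701 on the minus strand, LY96 (ENSG00000154589) at 8:73991352-74029087 and MYD88 (ENSG00000172936) at 3:38138478-38143022, both on the plus strand. Exon unions ran from 607 bases in LY96 to 13272 bases in TLR4.

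Some reads of these genes cannot be assigned with certainty. TLR1 and TLR6 share 57 exonic bases on the same strand, and 8.5% of the 50-base stretches of the longest TLR1 transcript also occur in TLR6. TLR4 shares 558 exonic bases with AL160272.2, a longer gene model on the same strand, and 3.61% of its 50-base stretches occur there. TLR8, CD14, LY96 and MYD88 had no 50-base stretch in common with another gene. TLR8-AS1 lies antisense to TLR8 without exonic overlap, and the strand setting of the authors' counting is not given in the sources used here.

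The sequence around the transcription start is shown for the receptor genes whose levels the results below turn on, since 4 of them fell together with IL-4. Windows of 300 bases, 250 before and 50 after the RefSeq start, were available for 7 of the 10 genes (GRCh38.p14); TLR1, TLR7 and LY96 were not matched. The motifs searched on both strands were TTC and GAA separated by 4 or by 3 bases (STAT factors), TGGGAA (the core bound by RBPJ), GAGGAAGT (PU.1, a factor of myeloid genes) the strict NF-kappaB consensus, and its relaxed form of GGG and CC separated by 5 bases, which also takes in the strict one. Stretches are written 5′ to 3′ on the gene's strand, with matches on either strand in capitals, other than those of the relaxed form. For TLR2, TLR4 and the STAT match of TLR6, 30 bases around each match are shown, and for TLR6 and TLR8 the 250 bases before the start.
TLR4, chr9:117704219-117704248, plus strand: ttcttcttctaACTTCCTCtcctgtgacaa
TLR4, chr9:117704291-117704320, plus strand: ttgccgctttcACTTCCTCtcaccctttag
TLR2, chr4:153684085-153684114, plus strand: gcgggagcctgcTGGGAAgcacggccgcgg
TLR6, chr4:38856768-38856797, minus strand: acaagttattttctcTTCTTCTGAAaaaga
TLR6, chr4:38856818-38857067, minus strand: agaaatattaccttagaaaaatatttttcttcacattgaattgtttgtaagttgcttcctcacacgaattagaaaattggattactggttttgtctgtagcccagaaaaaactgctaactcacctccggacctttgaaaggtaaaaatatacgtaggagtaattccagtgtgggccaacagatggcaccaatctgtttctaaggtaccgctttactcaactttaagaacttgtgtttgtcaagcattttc
TLR8, chrX:12906370-12906619, plus strand: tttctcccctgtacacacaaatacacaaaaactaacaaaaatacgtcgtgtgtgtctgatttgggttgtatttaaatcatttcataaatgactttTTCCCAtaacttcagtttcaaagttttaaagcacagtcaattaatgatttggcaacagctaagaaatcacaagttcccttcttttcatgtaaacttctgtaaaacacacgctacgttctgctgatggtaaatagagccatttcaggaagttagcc
The TLR4 window held GAGGAAGT at 2 places, both on the opposite strand, at -173 to -166 and -101 to -94 from the RefSeq start. GENCODE starts TLR4 further upstream (117704175, against 117704403 in RefSeq), so both matches lie inside the GENCODE gene. A match to GAGGAAGT was found in 2.59% of the 35114 windows, and 2 or more matches in 0.057% of them. The STAT motif with 4 bases between was found in TLR6, at +36 to +45 downstream of the start, and in 6.44% of all windows. The form with 3 bases between was found in CD14 and MYD88 and in 7.66% of all windows. TGGGAA was found in TLR2 (plus strand, -183 to -178) and TLR8 (opposite strand, -155 to -150), and in 24% of all windows. The TLR2 match lies inside the GENCODE gene, which starts at 153684070, against a RefSeq start of 153684280. The strict NF-kappaB letters were in none of the 7 windows and in 0.191% of all windows. The relaxed form, in 58.7% of all windows, was found in TLR2, TLR5 and MYD88. The TLR2 window was rich in G and C (72.4% of the 250 bases before the start), while TLR4 (46.4%), TLR6 (36.4%) and TLR8 (34.8%) lay below the median of all windows (58%).

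Gene counts summed to 12410668 to 15099788 in a library, so that 1 count stood for 0.0642 to 0.0800 CPM (the count scaled to a common library total). The libraries IRES unstimulated number 3 and DNMAML with IL-4 number 3 stood apart, with 23179 and 25322 genes detected against 21067 to 21557 in the other 16. Unstimulated, NOTCH1 was at 245 to 350 CPM in NIC1, 157 to 234 CPM in IRES and 133 to 178 CPM in DNMAML cells. With IL-4 it was at 367 to 453 CPM in NIC1, 199 to 274 CPM in IRES and 155 to 237 CPM in DNMAML cells. MAML1 was at 102 to 139 CPM in DNMAML cells and at 76 to 99 CPM in the other constructs. These counts include any vector reads that align to the genes. Summed markers of monocytes and macrophages (12 genes) were at 1530 to 1800 CPM in the 6 groups. MRC1 was at or near 0, and CD68 was at 0.401 to 1.6 CPM, with 1789 exonic bases that overlap another gene model on the same strand.

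MYD88 was the most abundant of the 10 genes and TLR5 the least. Levels between genes were compared per kilobase of exon in unstimulated IRES cells, as CPM per kb with the SD of 3 libraries. MYD88 stood at 37 ± 7.89 CPM per kb, above every library of the next gene. TLR2 (11.7 ± 1.98) and TLR6 (10.8 ± 1.69) followed and overlapped each other. TLR1 (7.18 ± 1.54), the other partner of TLR2, came next and overlapped LY96 (4.78 ± 1.94). LY96 in turn overlapped TLR4 (2.96 ± 0.457), and TLR4 overlapped CD14 (2.07 ± 1.2). The endosomal receptors were lower than all of these, with TLR7 at 0.593 ± 0.204 and TLR8 at 0.108 ± 0.0687 CPM per kb, and neither overlapped its neighbours in the order. TLR5 was at 0.0193 ± 0.0168 CPM per kb. With the length of the longest transcript in place of the exon union, TLR1 (11.4) moved above TLR6 (11.1).

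**Figure D1:**
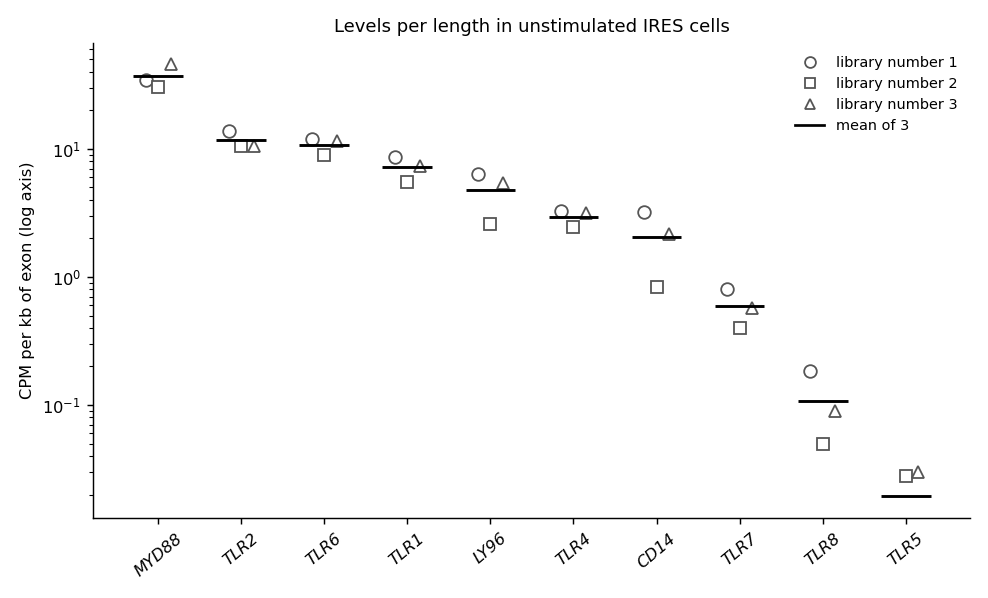
CPM per kb of exon (log axis) of the 10 genes in the 3 unstimulated IRES libraries, ordered by their mean (bar). MYD88 lies highest and TLR7, TLR8 and TLR5 lowest; library 1 of TLR5 had 0 counts and cannot be drawn on a log axis.

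TLR5, the flagellin receptor, had 0 to 7 counts in a library and 45 in all 18 together. It did not pass the filter on low counts of the edgeR model, so that 9 of the 10 genes were tested there. DESeq2, run without that filter, gave TLR5 an unadjusted p of 0.0514 (DNMAML against IRES with IL-4) to 0.969 over the 14 contrasts, and an adjusted p of 0.994 or 1 in the 8 contrasts where it gave one. The 2 libraries with a count of 0, IRES unstimulated number 1 and IRES with IL-4 number 2, allow a level of up to 0.218 and 0.225 CPM (3 counts; counting error only). A difference in TLR5 between groups was not detectable at this depth.

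**Figure D2:**
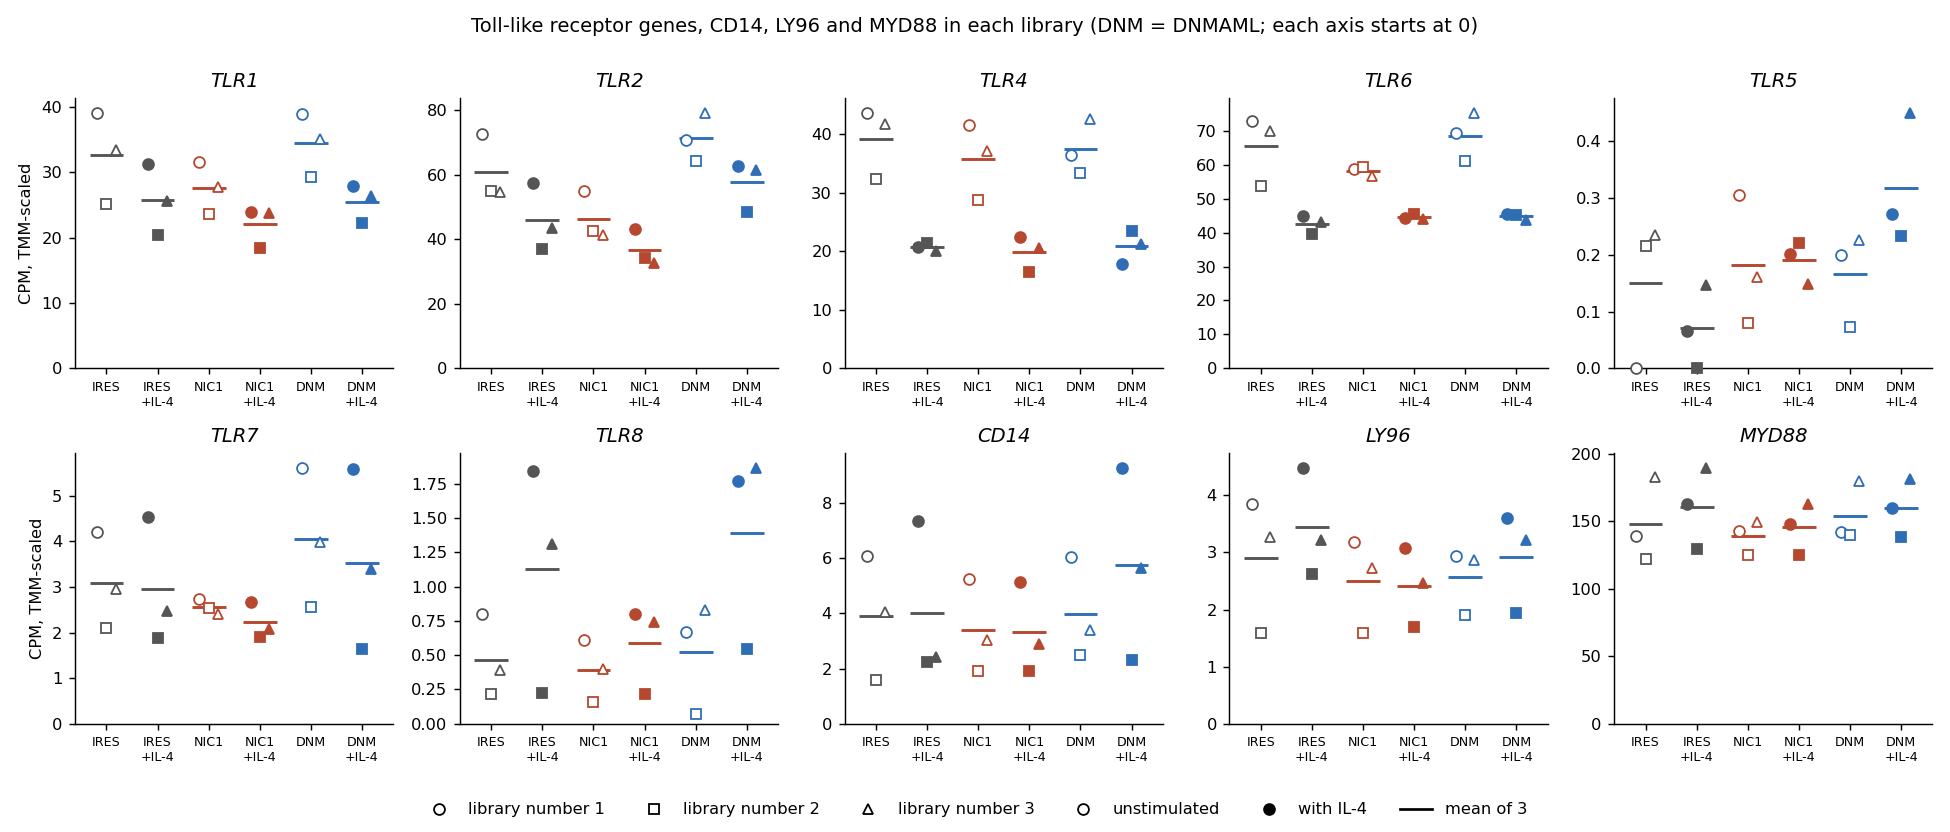
CPM of each gene in each of the 18 libraries by construct and IL-4; open symbols are unstimulated, filled symbols have IL-4, symbol shape gives the library number and bars are means of 3. TLR4 and TLR6 are lower in all 9 IL-4 libraries than in all 9 unstimulated ones, and TLR2 is lowest in NIC1 cells.

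The comparison of IL-4 with unstimulated cells asked how the cytokine moved these genes within 3 h. TLR4 and TLR6 fell in all 3 constructs, TLR1 and TLR2 fell by less when the constructs were averaged, and no gene rose past the test without the library number in the model. A gene is called here when its Benjamini-Hochberg adjusted p in edgeR's quasi-likelihood test over 15037 genes is under 0.05. TLR4 and TLR6 were the 2 of 9 called in IRES cells (2.93% of all genes tested were called, 0.911% lower), in NIC1 cells (3.05%, 0.798% lower) and in DNMAML cells (3.28%, 1.12% lower). Averaged over constructs, 4 of 9 were called, all lower (10.2%, 4.58% lower). The median log2 change of the 9 genes in the averaged response was -0.15, and that of all genes tested was -0.01. In bulk RNA, fewer cells that express a gene and less of its RNA per cell cannot be told apart. No label tells whether the libraries of a group came from separate cultures, so a p-value here sets a difference against library spread that may be only technical.

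TLR4, the LPS receptor, was at 43.6, 32.3 and 41.8 CPM in unstimulated IRES cells (libraries 1, 2 and 3) and at 20.7, 21.4 and 20.1 CPM with IL-4. In NIC1 cells it was at 41.5, 28.7 and 37.1 CPM and then at 22.4, 16.5 and 20.5 CPM. In DNMAML cells it was at 36.5, 33.4 and 42.6 CPM and then at 17.8, 23.5 and 21.3 CPM. Every one of the 9 IL-4 libraries lay below every one of the 9 unstimulated libraries, which 0.732% of the genes tested also did. The log2 change was -0.92 ± 0.156 (SE) in IRES cells (adjusted p = 0.0021), -0.85 ± 0.157 in NIC1 cells (adjusted p = 0.00407) and -0.85 ± 0.156 in DNMAML cells (adjusted p = 0.00429). Averaged over constructs it was -0.87 ± 0.0903 (95% interval -1.06 to -0.68, adjusted p = 4.27e-06), which left 0.546 of the unstimulated level. Within each number the change was smaller in number 2 of IRES and DNMAML cells (-0.59 and -0.5) than in numbers 1 and 3 (-1.07 to -0.99). The call held in each construct when any 1 of its libraries was left out. Without all libraries of number 1 or of number 3 it was lost in each construct (adjusted p up to 0.438), while the averaged call held without any of the 3 numbers (adjusted p up to 0.0116).

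TLR6, a partner of TLR2, was at 72.7, 53.7 and 69.8 CPM in unstimulated IRES cells and at 44.9, 39.5 and 43 CPM with IL-4. In NIC1 cells it went from 58.6, 59.2 and 56.6 CPM to 44.3, 45.6 and 44.1 CPM. In DNMAML cells it went from 69.3, 61.2 and 75.2 CPM to 45.6, 45.2 and 43.6 CPM. The 9 IL-4 libraries again lay below all 9 unstimulated libraries, and the IL-4 groups lay close together. The log2 change was -0.62 ± 0.0982 in IRES cells (adjusted p = 0.00109), -0.38 ± 0.0982 in NIC1 cells (adjusted p = 0.0474) and -0.61 ± 0.098 in DNMAML cells (adjusted p = 0.00115). In NIC1 cells the call was lost when any 1 of the 6 libraries was left out (adjusted p 0.117 to 0.174), without the 2 libraries that stood apart (adjusted p = 0.0751), with RLE size factors (0.0539) and with a filter of at least 1 CPM in 3 libraries (0.0546), with the log2 change between -0.4 and -0.37. Averaged over constructs TLR6 fell by 0.54 ± 0.0567 on the log2 scale (adjusted p = 5.09e-06), to 0.688 of the unstimulated level, and this call held without any single library and without any whole number. In IRES and DNMAML cells the call held without any 1 library, and under 1 of the 3 removals of a whole number (adjusted p up to 0.259 under the others). In IRES cells it was lost when only the 2 groups compared entered the model (log2 change -0.63, adjusted p = 0.0994).

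TLR1, the other partner of TLR2 and the neighbour of TLR6, was at 23.6 to 39.1 CPM in the 9 unstimulated libraries (median 31.6) and at 18.5 to 31.3 CPM in the 9 with IL-4 (median 24). The ranges overlapped, but the IL-4 library was the lower one in 9 of 9 pairs of the same construct and number, which was so for 8.84% of the genes tested. The averaged log2 change was -0.36 ± 0.105 (adjusted p = 0.0355), with the library number as a block 9.14e-07. Without the block the call was lost when any of 11 of the 18 libraries was left out (adjusted p up to 0.0885) and without the 2 libraries that stood apart (adjusted p = 0.0994). The 11 were numbers 1 and 3 of each unstimulated group, number 2 of each IL-4 group and number 3 of IRES and DNMAML cells with IL-4. It held without 1 of the 3 whole numbers (adjusted p up to 0.418 without the others). In IRES cells the log2 change was -0.34 ± 0.182 (adjusted p = 0.631, blocked 0.00366), in NIC1 cells -0.32 ± 0.183 (0.691, blocked 0.00695) and in DNMAML cells -0.43 ± 0.181 (0.342, blocked 2.53e-04). TLR1 was thus called within each construct only where the shared level of each number was taken out.

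TLR2 was at 41.4 to 79.2 CPM without IL-4 (median 55.1) and at 32.7 to 62.9 CPM with it (median 43.6), and it too was lower in 9 of 9 same-number pairs. The averaged log2 change was -0.35 ± 0.101 (adjusted p = 0.0376, blocked 1.13e-04). The call was lost without any of 9 of the 18 libraries (number 1 of each unstimulated group, number 3 of unstimulated DNMAML cells, number 2 of each IL-4 group and number 3 of IRES and NIC1 cells with IL-4; adjusted p up to 0.0907), without the low-count filter (adjusted p = 0.141) and without the 2 libraries that stood apart (adjusted p = 0.0561). It too held without 1 of the 3 whole numbers (adjusted p up to 0.351 without the others). By construct the log2 change was -0.4 ± 0.175 in IRES cells (adjusted p = 0.412, blocked 0.0109), -0.34 ± 0.177 in NIC1 cells (0.605, blocked 0.0496) and -0.31 ± 0.173 in DNMAML cells (0.628, blocked 0.0457). TLR1 and TLR2 thus had averaged estimates of nearly the same size, smaller than those of TLR4 and TLR6. Their 95% intervals (-0.59 to -0.14 and -0.56 to -0.13) overlapped that of TLR6 (-0.66 to -0.42) but not that of TLR4 (-1.06 to -0.68). Differences between genes were not tested.

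With the library number as a block, the count of called genes went from 2 to 5 of 9 in IRES cells (9.04% of all genes), from 2 to 4 in NIC1 cells (8.8%), from 2 to 5 in DNMAML cells (9.95%) and from 4 to 5 averaged over constructs (21.8%). The genes added were TLR1 and TLR2 in each construct and TLR8 in IRES and DNMAML cells and in the average. TLR8 was the only one of the 5 that was higher with IL-4.

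**Figure D3:**
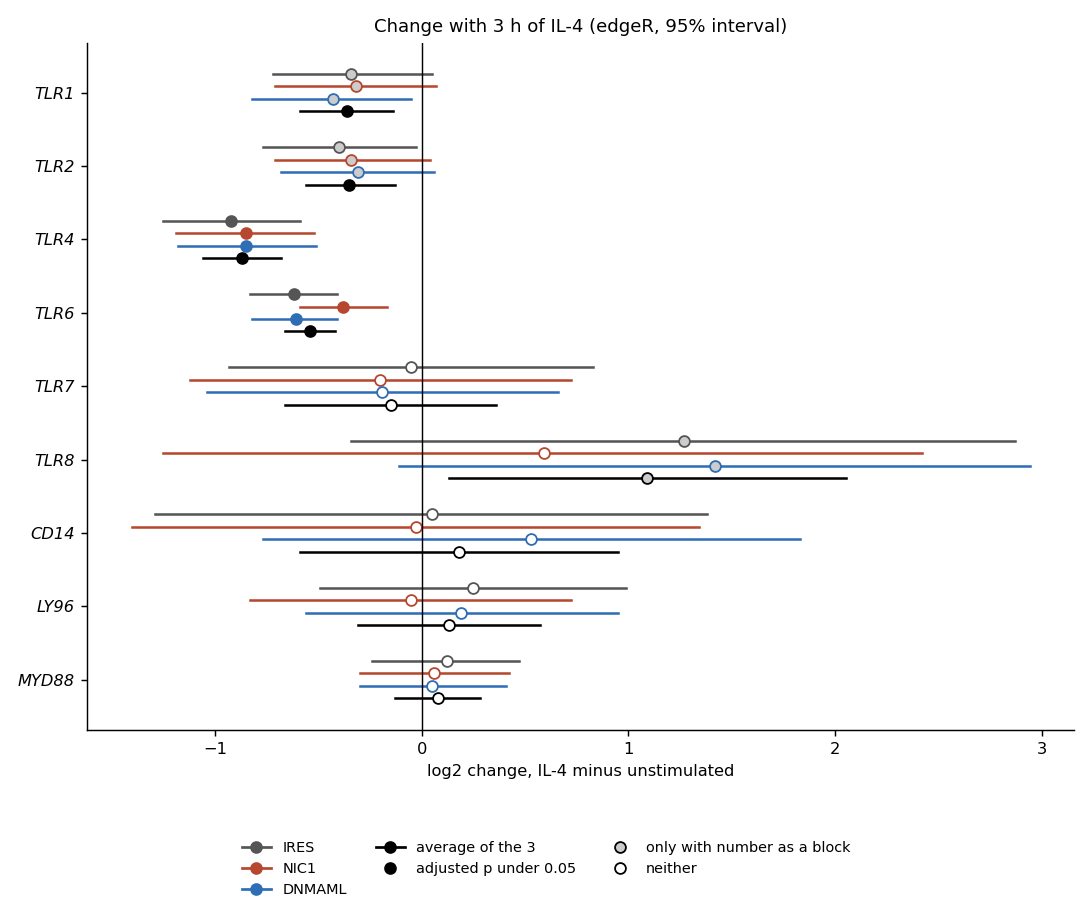
Log2 change with IL-4 for the 9 tested genes in each construct and averaged, with 95% intervals from edgeR; filled points were called, grey points were called only with the library number as a block. TLR4 and TLR6 are called in every construct, and the intervals of TLR7, TLR8, CD14 and LY96 are wide.

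Of the endosomal receptors, TLR8 had few reads, with 1 to 11 counts in an unstimulated library and 3 to 29 with IL-4. It was at 0.798, 0.216 and 0.39 CPM in unstimulated IRES cells and at 1.84, 0.225 and 1.31 CPM with IL-4. In DNMAML cells it went from 0.666, 0.0732 and 0.828 CPM to 1.77, 0.543 and 1.86 CPM, and in NIC1 cells from 0.608, 0.159 and 0.4 CPM to 0.803, 0.22 and 0.744 CPM. The groups overlapped in every construct because number 2 was low throughout, yet the IL-4 library was the higher one in 9 of 9 pairs (8.37% of the genes tested). In number 2 of IRES cells both libraries had 3 counts, so that this pair differed only by library scaling (log2 difference 0.04). In number 2 of NIC1 cells the counts were 2 without and 3 with IL-4. The averaged log2 change was 1.09 ± 0.453 (adjusted p = 0.176, blocked 7.04e-04). It was 1.27 ± 0.756 in IRES cells (adjusted p = 0.717, blocked 0.0319), 1.42 ± 0.719 in DNMAML cells (0.532, blocked 0.00565) and 0.59 ± 0.864 in NIC1 cells (0.999, blocked 0.564). Without the 2 libraries that stood apart, the blocked adjusted p was 0.265 in IRES cells and 0.00585 in the average. TLR7, its neighbour on the X chromosome, was at 2.09 to 5.6 CPM without IL-4 and 1.63 to 5.58 CPM with it, with an averaged log2 change of -0.15 (95% interval -0.66 to 0.36, adjusted p = 0.853).

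The co-receptors and the adaptor were not called in any construct, without the block or with the library number as a block. When number was blocked within each construct, CD14 was called in DNMAML cells, where 17% of all genes were, and MYD88 in the average, where 29.6% of all genes were. CD14 was at 1.59 to 6.1 CPM without IL-4 and at 1.91 to 9.26 CPM with it, higher in 4 and lower in 5 of 9 pairs, with an averaged log2 change of 0.18 (95% interval -0.59 to 0.95, adjusted p = 0.89). LY96 was at 1.59 to 3.85 and 1.69 to 4.47 CPM (0.13, interval -0.31 to 0.57, adjusted p = 0.85). Without the block, both intervals reach a change of the size measured for TLR6, upward in LY96 and in either direction in CD14. With the library number as a block the averaged estimates were 0.17 ± 0.117 (SE) in CD14 and 0.13 ± 0.105 in LY96. The SE without the block was 0.361 in CD14 and 0.206 in LY96, so that the wide reach rests on leaving the number out. MYD88, measured with 1572 to 2817 counts in a library, was at 122 to 183 and 125 to 189 CPM, with a log2 change of 0.08 (interval -0.13 to 0.28, adjusted p = 0.785). Its interval excludes a fall of the size measured for TLR4, TLR6, TLR1 or TLR2. DESeq2 made the same 4 averaged calls (adjusted p 4.38e-17 for TLR4, 1e-14 for TLR6, 0.0166 for TLR1 and 0.016 for TLR2).

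Whether the constructs differed in their IL-4 response was tested by the difference of the responses. No member was called by edgeR for NIC1 against IRES, DNMAML against IRES or NIC1 against DNMAML, and none had an unadjusted p under 0.05 there. Over all genes edgeR called 0 in each (0% of genes), with 121, 98 and 214 at an unadjusted p under 0.05, and DESeq2 called no member. With number blocked within each construct, edgeR called 13 genes (0.0865%) for NIC1 against DNMAML, none of them a member, and 0 for the other 2 differences. For TLR4 the response of NIC1 cells differed from that of IRES cells by 0.07 on the log2 scale (95% interval -0.4 to 0.53) and that of DNMAML cells by 0.07 (-0.39 to 0.54). For TLR6 the differences were 0.24 (-0.05 to 0.54) and 0.01 (-0.28 to 0.3). The smaller TLR6 change in NIC1 cells is thus not shown to differ from the change in the other constructs.

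The comparison of NIC1 with DNMAML cells set the active part of NOTCH1 against the dominant negative of the Notch transcription complex. TLR2 was lower in NIC1 cells, without and with IL-4, and was the 1 gene of 9 called when the 2 states were averaged (7.14% of all genes were called, 3.12% lower). Unstimulated, TLR2 was at 55.1, 42.5 and 41.4 CPM in NIC1 cells and at 70.9, 64.2 and 79.2 CPM in DNMAML cells. With IL-4 it was at 43.2, 34.1 and 32.7 CPM and at 62.9, 48.6 and 61.5 CPM. Each NIC1 group lay below the DNMAML group of the same state without overlap, which 8.01% of the genes tested did unstimulated and 7.16% with IL-4, and NIC1 was lower in 6 of 6 same-number pairs (10.3% of the genes tested). The averaged log2 difference was -0.64 ± 0.124 (95% interval -0.9 to -0.37, adjusted p = 0.00533), so that NIC1 cells held 0.643 of the DNMAML level. The call held without each of the 12 libraries in turn, and without the 2 libraries that stood apart (adjusted p = 0.0229). It was lost without the 6 groups' libraries of number 3, where the log2 difference was -0.5 and the adjusted p 0.267.

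In each state alone no gene was called without the block (1.65% of all genes called unstimulated and 1.44% with IL-4). Unstimulated, 2 of the 9 genes (TLR2 and TLR6) had an unadjusted p under 0.05, and with IL-4 there was 1 (TLR2). DESeq2 called TLR2 in both states (adjusted p 0.032 and 0.023). The TLR2 difference was -0.62 unstimulated (edgeR adjusted p = 0.0985, blocked 2.19e-04) and -0.65 with IL-4 (0.0896, blocked 1.82e-04). The empty vector lay between the constructs in its mean. TLR2 was at 60.8 ± 10.3 CPM (SD, n = 3) in unstimulated IRES cells, against 46.3 ± 7.58 CPM in NIC1 and 71.4 ± 7.49 CPM in DNMAML cells. With IL-4 the means were 46 ± 10.5 CPM in IRES, 36.7 ± 5.71 CPM in NIC1 and 57.7 ± 7.92 CPM in DNMAML cells.

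Against IRES, none of the 9 genes was called by edgeR in NIC1 cells (0.233% of all genes called unstimulated, 0.2% with IL-4) or in DNMAML cells (0% in both states), and DESeq2 called none of them. TLR2, in unstimulated NIC1 against IRES cells, was the 1 member with an unadjusted p under 0.05 in these 4 comparisons. Its log2 difference was -0.39 ± 0.175 (adjusted p = 0.668) and was called with the block (0.0256, where 5.37% of all genes were called). With IL-4 it was -0.33 ± 0.176 (adjusted p = 0.936, blocked 0.0839, with 5.44% of all genes called). In DNMAML cells TLR2 differed from IRES by 0.23 (95% interval -0.14 to 0.6) and 0.33 (-0.05 to 0.7). These comparisons share the IRES libraries.

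With the library number as a block, 6 of the 9 genes were lower in NIC1 than in DNMAML cells in the average, where 24.5% of all genes were called and 11.4% were lower. Besides TLR2 (blocked adjusted p = 1.52e-06) these were TLR1 (log2 difference -0.26, blocked 7.93e-04), TLR7 (-0.67, blocked 0.00559), TLR8 (-0.82, blocked 0.0339), CD14 (-0.51, blocked 0.0124) and MYD88 (-0.14, blocked 0.0271). Without the block their adjusted p lay between 0.201 for TLR7 and 0.569 for CD14. Without the 2 libraries that stood apart, 5 of the 6 kept a blocked adjusted p under 0.05, and TLR8 did not (0.0637). By state, the block called TLR1 and TLR2 unstimulated (13.8% of all genes) and TLR2, TLR8 and CD14 with IL-4 (12.6%). Without the 2 libraries that stood apart, the blocked calls of TLR8 (adjusted p = 0.0701) and CD14 (0.0845) with IL-4 were lost, and those of TLR2 in both states and of TLR1 unstimulated held. TLR4 (averaged -0.07, interval -0.3 to 0.16) and TLR6 (-0.12, -0.27 to 0.03), the genes called for IL-4 in every construct, were not called between the constructs in either model. Unstimulated, the TLR6 difference was -0.24 (95% interval -0.44 to -0.03, edgeR adjusted p = 0.294, blocked 0.056). There the NIC1 libraries lay below the DNMAML libraries without overlap, as for TLR2 (8.01% of the genes tested). In that state edgeR called TLR6 under 1 of 17 alternative settings (adjusted p = 0.0265). With IL-4 the TLR6 difference was 0 (-0.21 to 0.21).

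**Figure D4:**
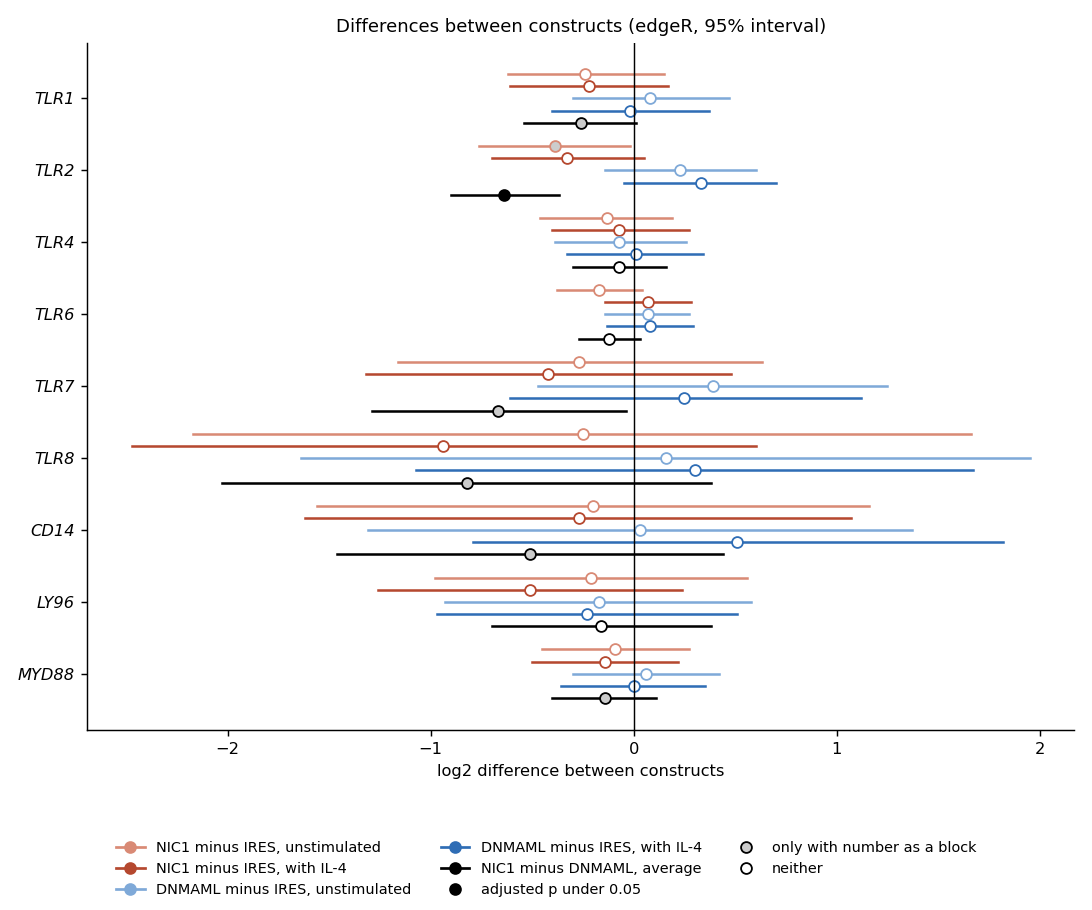
Log2 differences between constructs for the 9 tested genes with 95% intervals from edgeR; the filled point was called, grey points were called only with the library number as a block. TLR2 is lower in NIC1 than in DNMAML cells, and no point of DNMAML minus IRES is called.

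Some markers of other cell types differed between the same constructs. Summed T cell markers (8 genes) were at 114 to 159 CPM in NIC1 cells and at 76.2 to 97.1 CPM in DNMAML cells, with CD3D, CD3G and TRAC called higher in NIC1 cells of the 4 tested. TRAC averaged 108 CPM in unstimulated NIC1 and 88.9 CPM in unstimulated DNMAML cells. LCK went the other way, with means of 1.23 CPM in unstimulated NIC1 and 1.69 CPM in unstimulated DNMAML cells. With IL-4 its means were 0.839 and 0.846 CPM. CD3D averaged 32.1 CPM in unstimulated NIC1 and 2.31 CPM in unstimulated DNMAML cells, while CD2 and CD247 were at or near 0 in all groups. Summed neutrophil progenitor markers (6 genes) were at 190 to 219 CPM in NIC1 and at 114 to 158 CPM in DNMAML cells, with PRTN3 and AZU1 called of the 3 tested. Called in the other lists were FCER1G (0.82 ± 0.147) and TYROBP (0.32 ± 0.0779) higher and ITGAM lower of 11 monocyte and macrophage markers, CD79A (0.47 ± 0.121) higher of 2 B cell markers, KRT18 (-1.12 ± 0.148) and KRT8 (-0.61 ± 0.153) lower of 8 fibroblast and epithelial markers, and ITGA2B (1.2 ± 0.344), the 1 erythroid and megakaryocyte marker tested, higher. The part of these differences in the TLR2 result was not tested. IL-4 moved no T cell, B cell or neutrophil progenitor marker past the test in the averaged response without the block, and 2 T cell markers were lower with it. CDH1, an epithelial marker, rose with IL-4 (0.95 ± 0.199).

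Other genes of the receptor pathway were taken from 8 lists of 99 genes, of which 92 were tested. In the averaged IL-4 response 14 of the 92 rose and 10 fell (26.1%, against 10.2% of all genes), with a median log2 change of -0.03 against -0.01 over all genes tested. The lists were chosen with earlier results of these data known, so these shares do not test whether the pathway responded. Among the other Toll-like receptors, TLR3 and TLR10 were tested and not called, and TLR9 was too low to test. TLR10, the closest relative of TLR1 and TLR6, had a log2 change of -0.58 (adjusted p = 0.35, blocked 0.0282).

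Of 6 ligand transfer genes and receptor homologues, 2 rose with IL-4. They were CD180, a TLR4 homologue of the cell surface (0.58 ± 0.106), and ITGAM, the alpha chain of the Mac-1 integrin (0.28 ± 0.0687). Of 11 genes for receptor folding and trafficking, RAB7B, a late endosomal GTPase, fell by 1.31 ± 0.105 on the log2 scale (adjusted p = 2.29e-07). Of 5 adaptors, PIK3AP1 (also called BCAP) fell by 0.24 ± 0.0524. Of 20 kinases and ubiquitin ligases, IRAK2 (-0.88 ± 0.261), TAB1 (-0.19 ± 0.0529) and TRAF3 (-0.18 ± 0.0343) fell and MAP3K8 rose (0.6 ± 0.0819). IRAK2, a kinase recruited by MYD88, averaged 35.6 CPM in unstimulated IRES cells and 18.5 CPM with IL-4.

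Of 20 negative regulators, 4 rose and 1 fell with IL-4. SOCS1, a feedback inhibitor of cytokine signalling, went from a mean of 0.992 to 52.7 CPM in IRES cells (averaged log2 change 5.42 ± 0.154, adjusted p = 9.2e-13). SOCS3 rose by 1.14 ± 0.139 and CD300A, an inhibitory surface receptor, by 0.48 ± 0.0591. TNFAIP3 (A20), a deubiquitinase that restrains NF-kappaB, fell by 0.73 ± 0.0779. Of 13 transcription factors, IRF8 (1.66 ± 0.235), ATF3 (1.11 ± 0.103) and JUN (0.76 ± 0.136) were among the 4 that rose, and FOS was the 1 that fell (-1.3 ± 0.113). Of 15 tested cytokine and enzyme genes induced by the pathway, the chemokines CCL4 (2.84 ± 0.5) and CCL5 (0.56 ± 0.161) and the adhesion molecule ICAM1 (0.65 ± 0.132) rose. The chemokines CCL20 (-1.32 ± 0.299) and CXCL1 (-1.15 ± 0.239) and the cytokine subunit IL23A (-0.71 ± 0.167) fell.

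Between NIC1 and DNMAML cells, 12 of the 92 genes were higher and 6 lower in NIC1 in the average (19.6%, against 7.14% of all genes), with a median log2 difference of 0.02 against -0.0023 over all genes. Here too the lists were chosen with earlier results known, so the shares are a description and not a test of the pathway. ITGAM, which codes for the CR3 receptor chain, was lower in NIC1 (-0.67 ± 0.0844), as TLR2 was. CD36, a scavenger receptor that hands lipid ligands to TLR2 with TLR6, was higher (1.63 ± 0.226), and so was CD180 (1.19 ± 0.131). In unstimulated cells CD36 averaged 43.4 CPM in NIC1, 24.2 CPM in IRES and 14.3 CPM in DNMAML cells. The adaptor PIK3AP1 (0.68 ± 0.0644), the phosphatase PTPN6 (0.54 ± 0.083) and the endolysosomal protease LGMN (1.15 ± 0.153) were higher in NIC1 cells too. Of the other trafficking genes, ATP6V0D2, a subunit of the vacuolar proton pump (1.34 ± 0.362), and the GTPase RAB10 (0.14 ± 0.0374) were higher. Of the 20 negative regulators 5 were higher, among them the inhibitory receptors CD300LF (1.64 ± 0.422) and CD300A (0.7 ± 0.0725), and TNIP1, a partner of A20, was lower (-0.25 ± 0.0501). Of the 13 transcription factors ATF3 was higher (0.64 ± 0.125) and FOS lower (-0.52 ± 0.137), and of the 15 induced genes tested CXCL1 was lower (-1.03 ± 0.294). Of the kinases and ubiquitin ligases, IKBKB (-0.3 ± 0.061) and TRAF3 (-0.2 ± 0.0421) were lower.

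For the 4 called genes, the genes with the most similar pattern were sought over the 18 libraries, by Pearson's r of log2 CPM after the mean of each library number was subtracted, among 11123 genes. TLR4 was closest to SGTB (0.977), ZC3H13 (0.968) and ZEB2 (0.967), whose averaged IL-4 log2 changes were -0.52, -0.37 and -0.82. TLR6 was closest to SP3 (0.969), MARF1 (0.967) and KLF7 (0.961). TLR1 was closest to PTPRJ (0.967), FFAR2 (0.961) and BACH1 (0.953). TLR2 was closest to EDEM2 (0.968), PTTG1IP (0.957) and PSAP (0.95), whose log2 differences of NIC1 from DNMAML were -0.21, -0.2 and -0.22. The values describe 18 libraries that share groups, numbers and depth, and they were picked as the highest of many.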

How the data were processed

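RNA of 18 THP-1 libraries was sequenced from TruSeq libraries, per the labels' protocols. Each deposited file lists raw read counts, 1 whole number for each gene. HISAT2, HTSeq, Trimmomatic, FastQC and DESeq2 are named in the submitters' processing notes, with the build GRCh38.p12, without roles. Tool versions, the annotation release and the strand setting were not given in the sources used here. Entries that name no gene held 23.82% to 30.93% of the reads and were left out. Of 58051 identifiers, 56948 had a symbol in the name table and 57447 were found in GENCODE release 29.

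Genes were kept by filterByExpr (15037). CPM were scaled by TMM. The test was the quasi-likelihood F test of edgeR 4.0.16 (R 4.3.3, limma 3.58.1) in a model of 6 group means over 18 libraries, with 14 contrasts, Benjamini-Hochberg adjustment over all genes tested and a threshold of 0.05. Standard errors come from the F statistic. Library numbers, given as Ex1 to Ex3 in the titles, paired the libraries. Deviations from group means correlated in all 45 same-number pairs (r 0.206 to 0.759, median 0.466). Over the 90 other pairs r was -0.654 to 0.354 (median -0.395). Centring on group means by itself lowers r in the other pairs when same-number pairs correlate. By their highest r, 18 of 18 libraries lay closest to their own number. Blocked values come from a model with the number added, and are given where they change a call. A further model blocked number within each construct. The other alternatives were DESeq2 1.42.0, RLE or no scaling factors, other low-count filters, only the groups compared, removal of single libraries, of whole numbers and of the 2 libraries with most genes detected, and another gene length. The test was checked on counts simulated with the same dispersion for all genes and no effect of library number. Genes of at least 5 CPM were changed by 1 or 2 on the log2 scale. Of each 100 changed, 98 to 100 were recovered, with 12 false among 210 calls and 8 among 208. That check does not cover smaller changes, genes of lower level or the spread between library numbers. Figures were drawn with matplotlib 3.10.9 in Python 3.11.15.

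The genes and lists were chosen with earlier results of these data known. Outside the 10 genes, a gene was named by rule if called in an averaged contrast, up to 3 rising and 3 falling per list by size. For each called receptor, the 3 genes with the highest r (mean of at least 5 CPM) were named. TLR10 was named in addition after its value was seen.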

Additional observations from a re-analysis of the deposited data

How the results depend on the processing

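Every averaged IL-4 change of TLR1, TLR2, TLR4 and TLR6, and the averaged TLR2 difference of NIC1 from DNMAML, kept its direction under all 29 and 23 settings run. Counts of called genes moved as follows. With the replicate block they were 5 in IRES, 4 in NIC1 and 5 in DNMAML cells for IL-4, 1 for NIC1 against IRES unstimulated, and 2 unstimulated, 3 with IL-4 and 6 averaged for NIC1 against DNMAML. With number blocked within each construct the IL-4 counts were 5, 4 and 6, where 15%, 14.3% and 17% of all genes were called. Without the 2 libraries with most genes detected the IL-4 count was 1 in NIC1 cells and 2 averaged. The same setting together with the block, chosen after seeing the data, gave 4 in IRES, 4 in NIC1 and 5 in DNMAML cells for IL-4 (6.55%, 8.52% and 6.69% of all genes), 1 for NIC1 against IRES unstimulated (3.69%), and 2, 1 and 5 for NIC1 against DNMAML (13%, 8.25% and 21.2%). DESeq2 called 1 gene in each state for NIC1 against DNMAML. The IL-4 count in NIC1 cells was 1 with RLE size factors and 1 with at least 1 CPM in 3 libraries, and that in IRES cells was 1 with only the groups compared, where fewer libraries set the spread. With 1 library or 1 whole number left out, counts ran from 0 to 2 for IL-4 in each construct and 2 to 4 for IL-4 averaged. For NIC1 against DNMAML they ran from 0 to 1 unstimulated, where the 1 was TLR6 and not TLR2, and from 0 to 2 averaged. Otherwise the cause was not tested. Without TMM factors, TLR6 in NIC1 cells with IL-4 averaged 43.7 CPM. With the longest transcript as length, TLR1 stood at 11.4 and TLR2 at 14.5 CPM per kb. Depth limits TLR5 and TLR8 most.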

Other observations

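Several of these genes differed by library number within every group. CD14 averaged 6.53 CPM over the 6 libraries of number 1, 2.08 CPM over those of number 2 and 3.57 CPM over those of number 3. Number 1 was the highest of the 3 numbers in 6 of 6 groups for TLR1, TLR7, CD14 and LY96. Number 2 was the lowest in 6 of 6 groups for TLR1, TLR8, CD14, LY96 and MYD88. TLR8 averaged 1.08, 0.24 and 0.923 CPM over numbers 1, 2 and 3, and LY96 averaged 3.52, 1.89 and 2.95 CPM. MYD88 differed in that number 3 was the highest in 6 of 6 groups, with means of 149, 130 and 174 CPM. TLR6 was steadier, with means of 55.9, 50.7 and 55.4 CPM.

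After IL-4 the 3 libraries of a group lay closer together for TLR6 in each construct. Its SD was 10.2, 1.36 and 7.05 CPM in unstimulated IRES, NIC1 and DNMAML cells and 2.7, 0.792 and 1.07 CPM with IL-4. For TLR4 the SD went from 6.07 to 0.645 CPM in IRES cells, from 6.49 to 3 CPM in NIC1 cells and from 4.68 to 2.89 CPM in DNMAML cells. The TLR4 means fell too, from 39.2 to 20.7 CPM in IRES, 35.8 to 19.8 CPM in NIC1 and 37.5 to 20.9 CPM in DNMAML cells. A smaller SD in CPM is thus not by itself a smaller spread relative to the mean. Relative to the mean, the TLR4 spread was smaller with IL-4 in IRES and NIC1 cells and larger in DNMAML cells. These are spreads of 3 libraries and were not tested.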
